A study of Mus musculus with 18 samples.

Results

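The genes described here are the matrix metalloproteases, the ADAMTS proteases, the ADAMTS-like proteins and the TIMPs in primary mouse Leydig cells. They were taken from the deposited gene count table by symbol: Mmp followed by a number and at most the letter a or b, Timp1 to Timp4, Adamts followed by a number, and Adamtsl followed by a number. The rule gave 51 of the 55487 genes in the table: 23 MMP, 19 ADAMTS, 5 ADAMTS-like and 4 TIMP genes. Poly(A) RNA of 18 cultures was sequenced, 3 in each of 6 groups. The siprdx1+H2O2+FV group was transfected with a small interfering RNA (siRNA) against Prdx1, exposed to 200 µM H2O2 for 30 min and then given 5 µM fluvastatin (FV) for 6 h. The siprdx1+H2O2 group had the same siRNA and H2O2 and then 0.1% DMSO for those 6 h, and the siprdx1 group had the siRNA and DMSO without H2O2. The siNC+H2O2+FV, siNC+H2O2 and siNC groups had the same 3 treatments after the control siRNA, siNC. All 18 cultures were thus transfected, and no group had fluvastatin without H2O2, so every fluvastatin value below is an effect after H2O2. No DMSO content is given for either fluvastatin group, so any difference in DMSO cannot be told apart from fluvastatin. The labels name the 3 libraries of a group biological repeats without giving animals or isolations, so p-values cover the spread between these libraries, which may be technical.

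Matrix metalloproteases are zinc enzymes that cut collagens and other proteins of the extracellular matrix, and some of them are anchored in the cell membrane. ADAMTS enzymes are secreted relatives that either cut large proteoglycans such as versican and aggrecan, trim procollagens, or work on fibrillin-rich fibres. ADAMTS-like proteins carry the same accessory domains without the protease. TIMPs are small secreted inhibitors that block the active site of these enzymes. In the testis, Leydig cells sit in the interstitium among macrophages, fibroblast-like cells and the muscle-like cells around the tubules, all of which make matrix. Fluvastatin inhibits HMG-CoA reductase, the step that statins block in cholesterol synthesis, and Prdx1 encodes peroxiredoxin 1, an enzyme that reduces peroxides.

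The libraries held 15201530 to 23898435 counts, with a biological coefficient of variation of 7.01% over all genes. Prdx1 itself stood at 426 to 576 CPM (the count of a gene relative to its library total after TMM, a normalisation that aligns the bulk of genes between libraries) in the 9 siprdx1 libraries, against 1279 to 1690 CPM in the 9 siNC libraries. Of 9 listed Leydig genes, 7 passed the filter on low counts. Cyp11a1 and Star averaged 712 and 286 CPM, and Nr5a1, Hsd3b1, Insl3, Hsd3b6 and Lhcgr averaged 86.1, 64.4, 50.4, 13.2 and 4.39 CPM. The other listed Leydig genes, Cyp17a1 and Hsd17b3, averaged 0.0318 and 0.067 CPM. The macrophage gene Lyz2 averaged 5677 CPM and the stromal gene Col3a1 5662 CPM, so by these markers the RNA was not of Leydig cells alone. In bulk RNA of this kind, fewer cells of a type and less RNA per cell cannot be told apart. In most libraries the deviations of genes from the group mean ran with GC content. Over 10459 genes the Spearman correlations of the 18 libraries spread from −0.746 to 0.758, with siprdx1+H2O2 replicates 1 and 2 at these ends, siprdx1 replicate 2 at 0.728, siNC+H2O2+FV replicate 3 at 0.683 and siNC replicate 2 at −0.599. Some of the results that rest on the libraries at the 2 ends are also given without both. Values of partner genes, described last, are given with all 18 libraries only.

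Of the 51 genes, 38 passed the filter on low counts and were tested. At 0 counts in every library were 5 genes (Mmp1a, Mmp1b, Mmp20, Adamts16 and Adamts18), which allows a mean level of up to 0.00797 CPM, a limit for counting error only. The other 8, Mmp7, Mmp21, Mmp25, Adamts8, Adamts13, Adamts17, Adamts19 and Timp4, had reads but fell below the filter, and Timp4 averaged 0.162 CPM. At least 1 CPM was reached on average by 35 genes, and 11 averaged at least 100 CPM. Per kilobase of exon, the inhibitors led: Timp2 averaged 404 CPM per kb, Timp1 211 and Timp3 150 over the 18 libraries. Among the enzymes, Adamts1, which cuts versican and aggrecan, averaged 204 CPM per kb. Adamts2, a procollagen trimming enzyme, averaged 97.5 CPM per kb, and Adamts5, the main mouse aggrecanase, averaged 61.9. The leading metalloproteases were Mmp11 (stromelysin-3) at 80.3 CPM per kb and the membrane-anchored Mmp14 at 55.5. The macrophage elastase Mmp12 averaged 19.0 CPM per kb, and the gelatinases Mmp2 and Mmp9 averaged 14.6 and 1.90. By this level per kilobase, 3 inhibitors were among the first 4 genes.

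**Figure D1:**
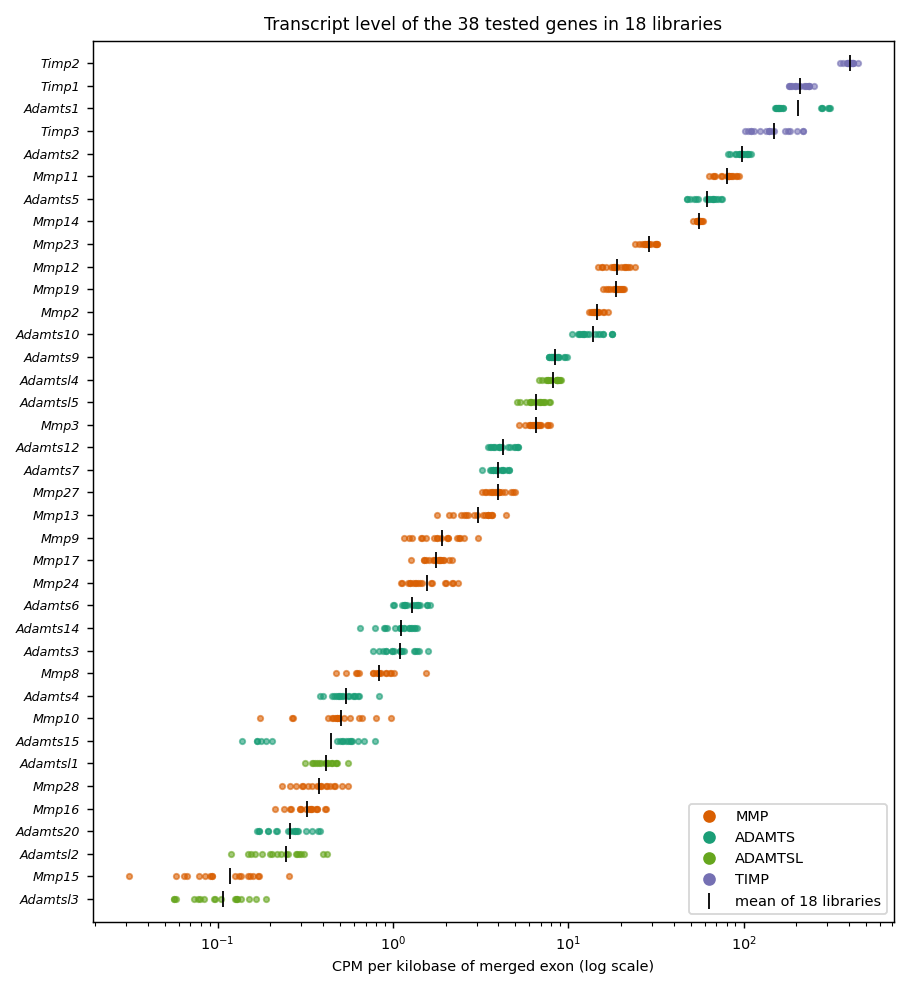
Level of each of the 38 tested genes in CPM per kilobase of merged exon (log axis), 1 point per library, coloured by class, with a bar at the mean of 18 libraries. Timp2 leads at 404 CPM per kb, and Adamts1 and Adamts15 each fall into 2 separate clouds of libraries.

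Each gene was tested with edgeR's quasi-likelihood test in 1 model of the 6 groups, and passed at an adjusted p (Benjamini-Hochberg over all 16432 genes tested) below 0.05. Log2 fold changes are given with their standard error, as the first-named group over the second. Of the 38 tested genes, 17 passed in at least 1 of 7 comparisons between 2 groups: 10 of 13 ADAMTS, 5 of 17 MMP, 2 of 3 TIMP and 0 of 5 ADAMTS-like genes, where 39.6% of all tested genes did. In all 34 gene and comparison pairs that passed, the 3 libraries of one group lay wholly above or below the 3 of the other. The pairs were chosen by a test on these same libraries, so this separation only describes them and is no further support. When single libraries were left out in turn, 22 of these 34 pairs passed every time.

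**Figure D2:**
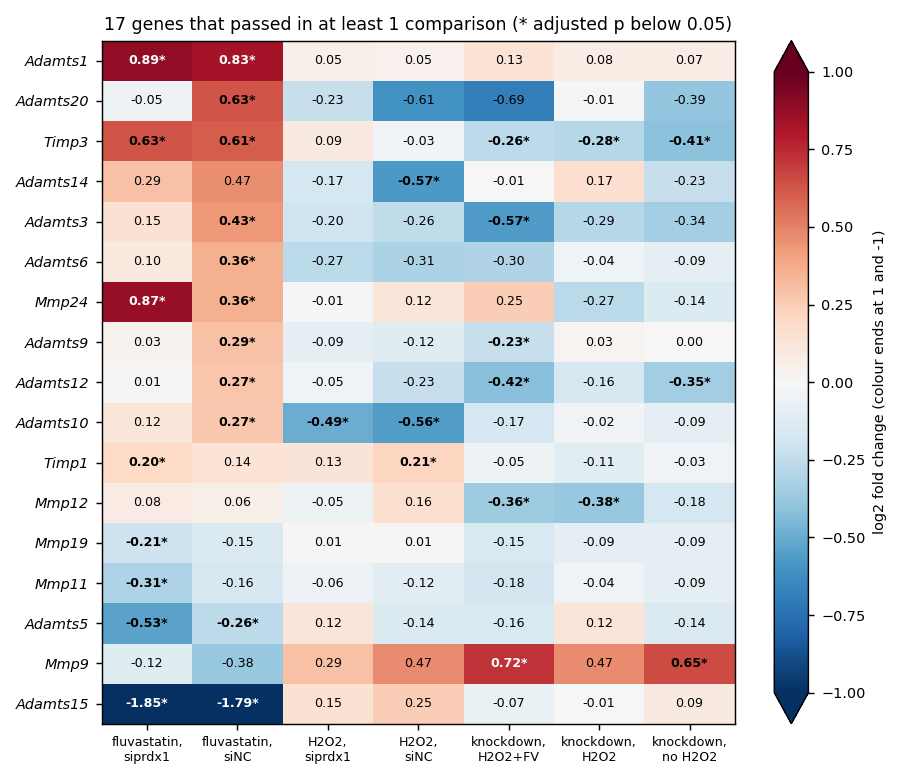
Log2 fold changes of the 17 genes that passed in at least 1 comparison (rows) in the 7 comparisons between 2 groups (columns), red for higher and blue for lower in the first-named condition, with a star where the adjusted p was below 0.05. Adamts1 and Timp3 are red and Adamts15 is deep blue in both fluvastatin columns, and Adamts10 is blue in both H2O2 columns.

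Fluvastatin after H2O2 gave the most calls among these genes. In siprdx1 cells 4 of 38 were higher and 4 lower with fluvastatin, where 12.6% and 11.0% of all tested genes were higher and lower. In siNC cells 9 were higher and 2 lower, where 13.5% and 11.3% of all tested genes were. The genes that passed in the same direction in both arms were 5: Adamts1, Timp3 and Mmp24 rose, and Adamts15 and Adamts5 fell. By class, 1 of 13 ADAMTS genes rose and 2 fell in siprdx1 cells, against 7 and 2 in siNC cells, and the median log2 fold change of the 13 was 0.01 and 0.27 in those arms. The macrophage marker counts also differed between the arms: 3 of 14 were higher and 0 lower with fluvastatin in siprdx1 cells, against 1 higher and 6 lower in siNC cells. Of these 14 markers, 11 had an unadjusted edgeR interaction p below 0.05, where 12.9% of all tested genes had. None of the 14 markers passed, and their median interaction was 0.29. Their part in the ADAMTS counts was not tested. The MMP genes had 1 of 17 higher and 2 lower in siprdx1 cells, and 1 higher and 0 lower in siNC cells. The medians over all tested genes were −0.01 in both arms with TMM scaling. With library size alone they were −0.11 in both arms. The counts of the 38 genes then became 3 higher and 10 lower in siprdx1 cells and 3 higher and 6 lower in siNC cells. In that fit 31% and 32.3% of all tested genes passed in those arms. Small fluvastatin changes thus depend on the scaling. With correction for GC content and length, chosen after the data were seen, 4 were higher and 9 lower in siprdx1 cells, where 32.9% of all genes passed. Without siprdx1+H2O2 replicates 1 and 2, which left 1 library in that group, Timp1 lost its siprdx1 call. Both fluvastatin comparisons use the H2O2 libraries as their reference, as the H2O2 comparisons use them as the treated group, so chance deviations of those libraries enter both with opposite sign.

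Adamts1 had 1629.7, 1655 and 1598 CPM in the siprdx1+H2O2+FV libraries, against 885, 892 and 861 CPM in the siprdx1+H2O2 libraries. In the control arm it had 1483, 1489 and 1475 CPM in the siNC+H2O2+FV libraries and 830.1, 843 and 828 CPM in the siNC+H2O2 libraries. All 6 fluvastatin libraries thus lay far above all 12 others, which ran from 799 to 892 CPM. The rise was 1.85-fold in siprdx1 cells (edgeR log2 fold change 0.89 ± 0.04, adjusted p = 3.46e-14) and 1.78-fold in siNC cells (edgeR log2 fold change 0.83 ± 0.04, adjusted p = 1.63e-13). Adamts1 stood at the third-highest level per kilobase.

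Adamts15, another versican- and aggrecan-cutting member at a low level, moved the other way. It had 2.12, 1.42 and 1.74 CPM in the siprdx1+H2O2+FV libraries, against 7.08, 6.52 and 5.58 CPM in the siprdx1+H2O2 libraries. In siNC cells it had 1.74, 1.97 and 1.84 CPM with fluvastatin, against 8.15, 5.39 and 5.78 CPM after H2O2 alone. The highest fluvastatin library, at 2.12 CPM, was well below the lowest of the 12 others, at 4.98 CPM. The log2 fold change was -1.85 ± 0.18 in siprdx1 cells (edgeR adjusted p = 3.55e-08) and -1.79 ± 0.18 in siNC cells (edgeR adjusted p = 7.53e-08).

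Adamts5 fell as well. Its levels were 511, 513 and 537 CPM in siprdx1+H2O2+FV and 804, 709.7 and 748 CPM in siprdx1+H2O2 libraries. The siNC+H2O2+FV libraries had 597, 579.7 and 564 CPM, against 678, 728 and 678 CPM in siNC+H2O2 libraries. The log2 fold change was -0.53 ± 0.06 in siprdx1 cells (edgeR adjusted p = 8.21e-08) and -0.26 ± 0.05 in siNC cells (edgeR adjusted p = 0.00105). Adamts5 and Adamts1 are neighbours on chromosome 16, on the same strand and 53059 bases apart in the mm10 (GRCm38) annotation, and they changed in opposite directions in both arms.

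**Figure D3:**
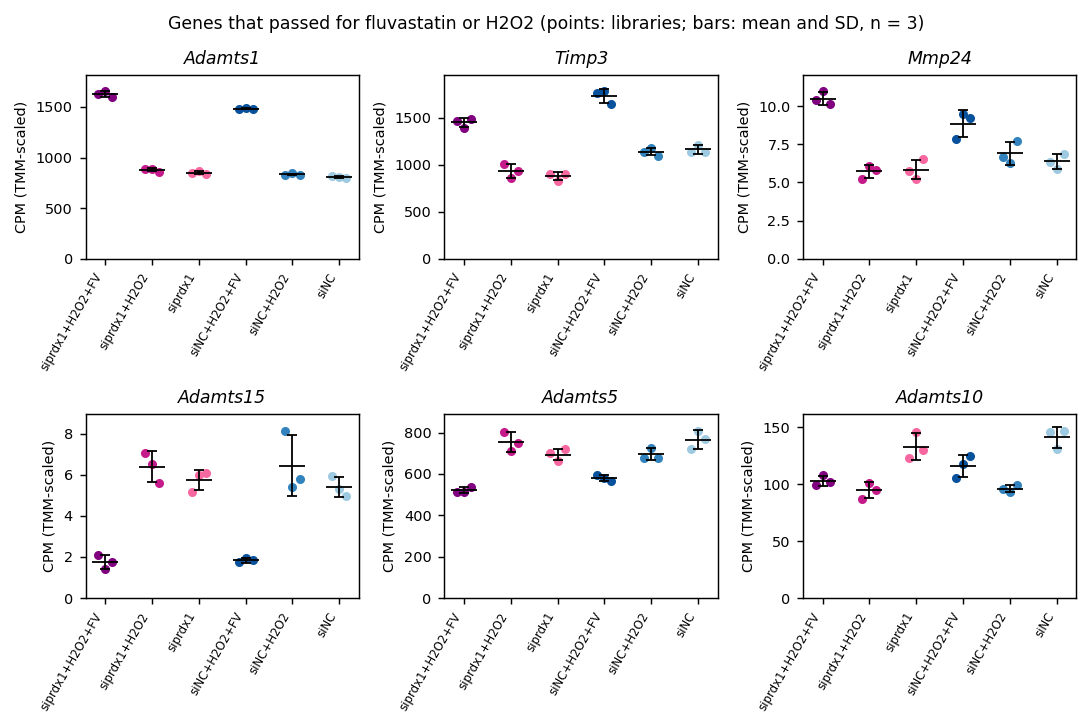
Level (CPM, linear axis from 0) of 6 genes in each library (points) with the group mean and SD (bars, n = 3), siprdx1 groups left and siNC groups right, fluvastatin before H2O2 before no H2O2 in each. The fluvastatin libraries of Adamts1, Timp3 and Mmp24 lie above, and those of Adamts15 and Adamts5 below, the H2O2 libraries of the same arm.

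In siNC cells 6 more ADAMTS genes passed, none of which passed in siprdx1 cells. Adamts9, a versican-cutting member, had 148, 142 and 144 CPM in siNC+H2O2+FV libraries, against 118, 120.5 and 116 CPM in siNC+H2O2 libraries (edgeR log2 fold change 0.29 ± 0.05, adjusted p = 0.000106). Adamts12 had 56.7, 53.4 and 56.1 CPM with fluvastatin, against 44.0, 49.7 and 43.8 CPM without (edgeR log2 fold change 0.27 ± 0.07, adjusted p = 0.00711). Adamts10, which binds fibrillin fibres, had 105, 118 and 125 CPM with fluvastatin, against 95.9, 93.6 and 99.1 CPM without (edgeR log2 fold change 0.27 ± 0.07, adjusted p = 0.00892). In each of these genes the lowest fluvastatin library was above the highest without it, by a small margin beside that of Adamts1. The remaining 3 had few reads. The procollagen trimming enzyme Adamts3 had 7.12, 8.62 and 7.66 CPM with fluvastatin, against 5.96, 5.97 and 5.48 CPM without (edgeR log2 fold change 0.43 ± 0.14, adjusted p = 0.025). Adamts6, the closest relative of Adamts10, had 12.7, 11.1 and 10.8 CPM with fluvastatin, against 7.93, 10.3 and 8.80 CPM without (edgeR log2 fold change 0.36 ± 0.12, adjusted p = 0.0353). Adamts20, the closest relative of Adamts9, had 3.47, 3.10 and 2.48 CPM with fluvastatin, against 2.42, 1.96 and 1.51 CPM without (edgeR log2 fold change 0.63 ± 0.22, adjusted p = 0.0429). All but Adamts9 lost the call with library size alone, and Adamts12, Adamts6 and Adamts20 lost it with the GC and length correction. Adamts20 lost it with DESeq2 too. Over the 6 fits that left out 1 library, Adamts6 and Adamts20 lost the call in 4 each and Adamts3 in 3. Without siNC+H2O2+FV replicate 2, for example, 7 genes rather than 11 passed in this arm, where 18.6% of all genes passed. Adamts3, Adamts6, Adamts20 and Mmp24 were the ones that dropped.

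Among the inhibitors, Timp3 rose in both arms. Timp3 binds to the matrix and inhibits ADAM and ADAMTS enzymes besides the MMPs. It had 1470.2, 1395 and 1490.2 CPM in siprdx1+H2O2+FV libraries, against 1011, 865 and 938 CPM in siprdx1+H2O2 libraries. The siNC+H2O2+FV libraries had 1769.9, 1784 and 1654 CPM, against 1141, 1179.7 and 1099.8 CPM in the siNC+H2O2 libraries. The rise was 1.55-fold in siprdx1 cells (edgeR log2 fold change 0.63 ± 0.06, adjusted p = 9.2e-09) and 1.52-fold in siNC cells (edgeR log2 fold change 0.61 ± 0.06, adjusted p = 2.15e-08). Timp3 lies inside Syn3 on the opposite strand, with 1733 of 8144 exon bases shared, and whether counting used strand is not given in the sources used here; Syn3 averaged 3.07 CPM. The smaller Timp1, a soluble inhibitor on chromosome X, had 211, 210.1 and 197 CPM in siprdx1+H2O2+FV and 174, 177 and 188 CPM in siprdx1+H2O2 libraries (edgeR log2 fold change 0.20 ± 0.05, adjusted p = 0.00631). In siNC cells the Timp1 difference was 0.14 ± 0.05 (edgeR adjusted p = 0.0583), with 209, 208 and 224 CPM with fluvastatin, against 198, 183 and 201 CPM without. The siprdx1 call for Timp1 was lost with library size alone and without siprdx1+H2O2 replicates 1 and 2 (log2 fold change 0.14). Timp2, the most abundant, ranged from 1384 to 1752 CPM over all 18 libraries and passed in no comparison.

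The smooth-muscle and peritubular marker list moved with these changes: 5 of its 6 genes rose with fluvastatin in each arm. Of all tested genes 12.6% rose in siprdx1 cells and 13.5% in siNC cells. Its summed level was 2098 to 2355 CPM in siprdx1+H2O2+FV libraries, against 1100 to 1246 CPM in siprdx1+H2O2 libraries, and 2419 to 2575 CPM in siNC+H2O2+FV, against 1321 to 1411 CPM in siNC+H2O2 libraries. None of the 6 was at 0, and the part of these genes in the Adamts1 and Timp3 results was not tested. The summed Leydig markers were higher with fluvastatin too. They had 1348 to 1357 CPM against 1000 to 1063 CPM in siprdx1 cells, and 1456 to 1508 CPM against 1181 to 1196 CPM in siNC cells. Most of that rise came from Star, at 458 against 173 CPM in siprdx1 cells and 502 against 198 CPM in siNC cells. Nr5a1 was lower, at 70.3 against 94.8 CPM and 72.5 against 93.1 CPM. Of 7 tested Leydig markers 2 were higher and 1 lower in siprdx1 cells, and 1 higher and 3 lower in siNC cells. The median log2 fold change of these 7 markers was −0.04 in siprdx1 and −0.16 in siNC cells. Their part was not tested either.

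Among the metalloproteases, Mmp24, a membrane-anchored enzyme best known from neural tissue, was the one that passed as higher. It had 10.4, 11.0 and 10.1 CPM in siprdx1+H2O2+FV libraries, against 5.24, 6.11 and 5.82 CPM in siprdx1+H2O2 libraries (edgeR log2 fold change 0.87 ± 0.12, adjusted p = 4.03e-06). The siNC+H2O2+FV libraries had 7.85, 9.45 and 9.22 CPM, against 6.69, 6.29 and 7.72 CPM in siNC+H2O2 libraries (edgeR log2 fold change 0.36 ± 0.12, adjusted p = 0.0289). The siNC call was lost with library size alone, without the low-count filter and in 4 of the 6 fits that left out 1 library (siNC+H2O2 replicate 1 or 2, siNC+H2O2+FV replicate 2 or 3). Mmp24 shares 637 of its 4683 exon bases with BC029722 on the other strand, a gene at 113 CPM whose own fluvastatin changes of −0.01 and −0.11 in siprdx1 and siNC cells did not pass. Mmp11 had 185, 188 and 177 CPM in siprdx1+H2O2+FV libraries, against 207, 243 and 229.8 CPM in siprdx1+H2O2 libraries, and fell there (edgeR log2 fold change -0.31 ± 0.06, adjusted p = 0.001). Mmp19, a secreted member at a moderate level, also fell in siprdx1 cells, with 59.7, 55.9 and 57.8 CPM with fluvastatin, against 65.9, 66.5 and 68.0 CPM without (edgeR log2 fold change -0.21 ± 0.05, adjusted p = 0.00614). It shares 789 of 3533 exon bases with the opposite-strand gene Tmem198b, which averaged 13.6 CPM and had −0.18 in that comparison (edgeR adjusted p = 0.307) and −0.36 with fluvastatin in siNC cells, where it fell (edgeR adjusted p = 0.0307). In siNC cells the fluvastatin differences were -0.16 ± 0.06 for Mmp11 (edgeR adjusted p = 0.079) and -0.15 ± 0.05 for Mmp19 (edgeR adjusted p = 0.0539). Mmp14, which activates Mmp2 together with Timp2, ranged from 309 to 351 CPM over the 18 libraries, and Mmp2 from 44.3 to 57.0 CPM; neither passed in any comparison.

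On chromosome 9, 10 MMP genes lie next to one another, between positions 7272514 and 7699585 of mm10. Of these, 3 were at 0 counts and 1 below the filter, and of the 6 tested, 1 (Mmp12) passed in any comparison. The bases 250 before to 50 after each annotated start were available from RefSeq (GRCm38.p6) for 36 of the 51 genes, in 39 windows. The AP-1 motif TGANTCA, which reads the same on both strands, was present in 8 of the 39 windows (20.5%), against 7.81% of the 32851 windows of all genes. All 8 belonged to this chromosome 9 group, and no window of a gene outside it held the motif. The 4 tested genes with a match are shown from 100 to 21 bases before the start, on the plus strand, with the motif in capitals, because an AP-1 site near the start is the textbook inducible element of this gene group. For Mmp12 the match lies before the second of its 2 annotated starts.
Mmp13: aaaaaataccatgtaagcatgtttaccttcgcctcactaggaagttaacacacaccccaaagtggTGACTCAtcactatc
Mmp12: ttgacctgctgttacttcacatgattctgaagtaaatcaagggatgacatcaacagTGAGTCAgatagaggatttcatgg
Mmp3: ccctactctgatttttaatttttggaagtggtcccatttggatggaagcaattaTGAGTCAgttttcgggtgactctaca
Mmp10: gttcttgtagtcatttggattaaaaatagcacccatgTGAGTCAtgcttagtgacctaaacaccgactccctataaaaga
The first base shown is at position 7272414 for Mmp13, 7347274 for Mmp12, 7445722 for Mmp3 and 7502242 for Mmp10. The motif begins 35 bases before the start in Mmp13, 44 in Mmp12, 46 in Mmp3 and 63 in Mmp10. None of the 4 passed with fluvastatin or H2O2 in either arm. Mmp13, the mouse interstitial collagenase, had 9.69, 7.20 and 9.77 CPM in siprdx1+H2O2+FV and 8.68, 6.81 and 5.87 CPM in siprdx1+H2O2 libraries, with overlapping ranges. The stromelysin Mmp3 had 11.6, 12.2 and 11.9 CPM in siprdx1+H2O2+FV, against 12.6, 13.7 and 14.2 CPM in siprdx1+H2O2 libraries, lower without overlap but not past the test (edgeR log2 fold change -0.18 ± 0.10, adjusted p = 0.213). In siNC cells Mmp3 had 11.9, 12.4 and 10.9 CPM in siNC+H2O2+FV and 11.0, 11.3 and 11.3 CPM in siNC+H2O2 libraries, with overlap.

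The promoters of the most abundant genes that rose with fluvastatin in both arms, Adamts1 and Timp3, are shown for comparison as the 250 bases before the start, Adamts1 on the minus strand (chr16:85803114-85803363) and Timp3 on the plus strand (chr10:86300162-86300411), all in lower case because neither motif searched was found.
Adamts1: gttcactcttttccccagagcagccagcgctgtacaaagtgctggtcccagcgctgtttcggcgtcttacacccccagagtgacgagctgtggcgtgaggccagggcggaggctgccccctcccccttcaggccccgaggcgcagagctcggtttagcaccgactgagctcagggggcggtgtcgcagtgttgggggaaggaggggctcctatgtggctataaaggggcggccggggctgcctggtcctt
Timp3: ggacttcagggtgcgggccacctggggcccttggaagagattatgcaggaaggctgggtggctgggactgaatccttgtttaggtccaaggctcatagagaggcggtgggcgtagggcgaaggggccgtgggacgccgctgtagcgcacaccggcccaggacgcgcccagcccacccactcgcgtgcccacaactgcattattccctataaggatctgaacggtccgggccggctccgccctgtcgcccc
The second motif was the CArG box of serum response factor, which was found on either strand in 0 of the 39 windows and in 1.63% of all windows. The Mmp24 window held neither motif. A match is a description of letters, and its absence says only that these letters are not in this window.

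The difference of the fluvastatin effect between the arms was tested as an interaction. No gene of the 38 passed with edgeR, where 0.651% of all tested genes passed, and 7 of the 38 had an unadjusted p below 0.05, where 12.9% of all tested genes had. DESeq2 passed 2, Adamts5 (−0.28, adjusted p = 0.0373) and Adamts9 (−0.26, adjusted p = 0.0117), where it passed 0.759% of all genes with counts. With edgeR the interaction was -0.27 ± 0.08 for Adamts5 (adjusted p = 0.129), -0.26 ± 0.07 for Adamts9 (adjusted p = 0.107) and 0.52 ± 0.17 for Mmp24 (adjusted p = 0.194). The median interaction was −0.26 over the 13 ADAMTS genes and 0.01 over all tested genes. The passes seen in 1 arm alone, such as those of Adamts12, Adamts10, Mmp11 and Mmp19, are therefore not shown to differ between the arms. Correction for GC content and length gave 3 interactions, all negative, where 2.09% of all genes passed in that fit.

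**Figure D4:**
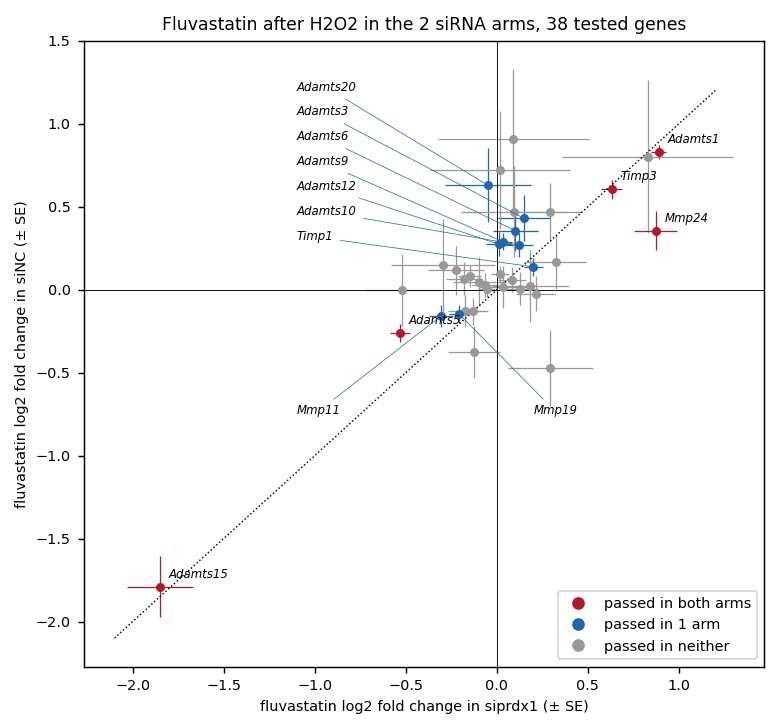
Fluvastatin log2 fold change (± SE) of the 38 tested genes in siprdx1 cells (x axis) and siNC cells (y axis), red where a gene passed in both arms and blue where it passed in 1, with the dotted line at equal change. Adamts1, Timp3 and Adamts15 lie on or near the line, and 6 ADAMTS genes lie above it near an x value of 0.

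H2O2 alone, measured 6 h after the exposure, passed few of these genes. In siprdx1 cells 0 of 38 were higher and 1 lower, with and without siprdx1+H2O2 replicates 1 and 2, where 2.48% and 5.39% of all tested genes were. In siNC cells 1 was higher and 2 lower, where 2.36% and 4.59% were. Adamts10 was the gene that passed in both arms. It had 87.2, 101 and 95.2 CPM in siprdx1+H2O2 libraries, against 123, 146 and 130.1 CPM in siprdx1 libraries. The siNC+H2O2 libraries had 95.9, 93.6 and 99.1 CPM, against 146, 131 and 147 CPM in siNC libraries. The 6 H2O2 libraries thus lay below the 6 libraries without H2O2, with log2 fold changes of -0.49 ± 0.07 in siprdx1 cells (edgeR adjusted p = 9.28e-05) and -0.56 ± 0.07 in siNC cells (edgeR adjusted p = 2.71e-05). With fluvastatin added, Adamts10 had 99.7, 108 and 102 CPM in siprdx1 cells, 0.12 ± 0.07 relative to H2O2 alone (edgeR adjusted p = 0.257). In siNC cells it passed as higher, as given above, yet its 3 libraries there remained below the 3 siNC libraries without H2O2.

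The other 2 calls for H2O2, both in siNC cells, were lost when some single libraries were left out. Timp1 had 198, 183 and 201 CPM in siNC+H2O2 libraries, against 175, 161 and 167 CPM in siNC libraries (edgeR log2 fold change 0.21 ± 0.05, adjusted p = 0.015). In siprdx1 cells the Timp1 difference was 0.13 ± 0.05 (edgeR adjusted p = 0.139). Adamts14, the third procollagen trimming enzyme, had 4.61, 4.12 and 4.83 CPM in siNC+H2O2, against 6.43, 7.16 and 6.62 CPM in siNC libraries (edgeR log2 fold change -0.57 ± 0.17, adjusted p = 0.0453), and its call was lost whichever library was left out. The Timp1 call was lost without siNC replicate 2 or 3 or siNC+H2O2 replicate 1 or 3, which left Adamts10 as the only gene in each case, and with the GC and length correction (0.09). That correction brought the counts to 6 in siNC and 5 in siprdx1 cells, where 9.15% and 14.3% of all genes passed. A second gene passed in siprdx1 cells without siprdx1 replicate 2. No gene passed the interaction of H2O2 with the knockdown, where 0.243% of all tested genes did. With edgeR 1 had an unadjusted p below 0.05, where 5.95% of all genes had. DESeq2 passed 0, where it passed 0.244% of all genes with counts.

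The Prdx1 knockdown was compared with siNC within each treatment. After H2O2 and fluvastatin 1 of 38 was higher and 5 lower in siprdx1 cells, where 1.62% and 2.35% of all tested genes were. After H2O2 0 were higher and 2 lower (0.901% and 1.83% of all genes), and without H2O2 1 was higher and 2 lower (0.657% and 1.67%). The median log2 fold change of the 38 was −0.13, −0.04 and −0.12 in these 3 comparisons, against 0.00 for all genes in each. Timp3 was lower in all 3, Mmp12 and Adamts12 in 2 and Adamts9 and Adamts3 in 1, while Mmp9 was higher in 2.

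Timp3 had 903, 832 and 902 CPM in siprdx1 libraries, against 1141, 1217 and 1136 CPM in siNC libraries, and the H2O2 and fluvastatin libraries are given above. The knockdown difference was -0.26 ± 0.06 after H2O2 and fluvastatin (edgeR adjusted p = 0.00868), -0.28 ± 0.06 after H2O2 (edgeR adjusted p = 0.00584) and -0.41 ± 0.06 without H2O2 (edgeR adjusted p = 0.000138). No siprdx1 library reached the lowest siNC library of the same treatment. Without siprdx1+H2O2 replicates 1 and 2 the difference after H2O2 was −0.28 and no longer passed, with 1 library left in that group that was assumed to vary like the others. The value after fluvastatin lost its call without siNC+H2O2+FV replicate 2 or siprdx1+H2O2+FV replicate 2. The summed fibroblast and stromal markers, most of which come from the collagens Col1a1, Col1a2 and Col3a1, were lower too: 15931 to 16601 CPM in siprdx1+H2O2+FV, against 18416 to 19126 CPM in siNC+H2O2+FV libraries, 17415 to 18700 CPM in siprdx1+H2O2, against 19090 to 19791 CPM in siNC+H2O2 libraries, and 15165 to 15927 CPM in siprdx1, against 17974 to 19026 CPM in siNC libraries. Single genes of that list differed in direction: of 8 tested, 0 were higher and 3 lower after H2O2 and fluvastatin, 2 higher and 2 lower after H2O2, and 0 higher and 3 lower without H2O2. After H2O2 Dcn averaged 3457 CPM in siprdx1 cells and 2738 CPM in siNC cells, and the median log2 fold change of the 8 was −0.04. Their part in the Timp3 result was not tested.

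**Figure D5:**
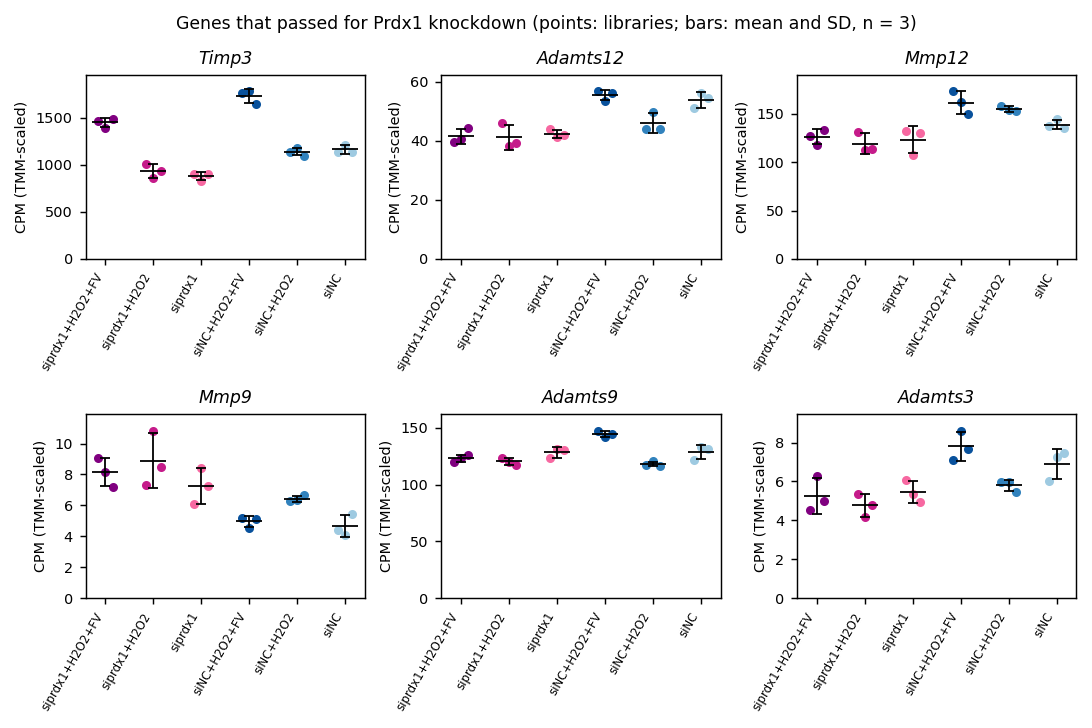
Level (CPM, linear axis from 0) of the 6 genes that passed for the knockdown, in each library (points) with the group mean and SD (bars, n = 3), siprdx1 groups left and siNC groups right. Timp3 is lower in siprdx1 than in siNC cells under each treatment, and Mmp9 is higher.

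Mmp12 had 127, 118 and 134 CPM in siprdx1+H2O2+FV, against 174, 162 and 149.8 CPM in siNC+H2O2+FV libraries (edgeR log2 fold change -0.36 ± 0.08, adjusted p = 0.00669). After H2O2 it had 131, 113 and 113 CPM in siprdx1 cells, against 159, 154 and 153 CPM in siNC cells (edgeR log2 fold change -0.38 ± 0.08, adjusted p = 0.0054). Without H2O2 the difference was -0.18 ± 0.08 (edgeR adjusted p = 0.37). Mmp12 is a macrophage enzyme, and the 14 macrophage markers summed to 8708 to 8890 CPM in siprdx1+H2O2, against 10104 to 10727 CPM in siNC+H2O2 libraries. After fluvastatin the same sum was higher, at 9087 to 9544 CPM in siprdx1 cells, against 8905 to 8976 CPM in siNC cells. Mmp12 was lower there, and most of the sum comes from Lyz2. Of the 14 markers 0 were higher and 1 lower after fluvastatin, where 1.62% and 2.35% of all tested genes were, with a median log2 fold change of 0.08. Marco averaged 387 CPM in siprdx1+H2O2+FV and 532 CPM in siNC+H2O2+FV libraries. The part of these markers in the Mmp12 values was not tested. The call after H2O2 held without siprdx1+H2O2 replicates 1 and 2, and the fluvastatin call was lost without siNC+H2O2+FV replicate 1 or siprdx1+H2O2+FV replicate 2.

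Mmp9, gelatinase B, had 9.06, 8.17 and 7.22 CPM in siprdx1+H2O2+FV, against 5.21, 4.53 and 5.14 CPM in siNC+H2O2+FV libraries (edgeR log2 fold change 0.72 ± 0.15, adjusted p = 0.00719). Without H2O2 it had 6.10, 8.42 and 7.25 CPM in siprdx1, against 4.38, 4.11 and 5.44 CPM in siNC libraries (edgeR log2 fold change 0.65 ± 0.16, adjusted p = 0.0239). After H2O2 the difference was 0.47 ± 0.15 (edgeR adjusted p = 0.0991). Every siprdx1 library was above every siNC library of its treatment, at levels where both calls were lost when single libraries were left out, in 2 of 6 fits after fluvastatin and in 4 of 6 without H2O2.

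Adamts12 had 39.6, 40.4 and 44.3 CPM in siprdx1+H2O2+FV libraries, against 56.7, 53.4 and 56.1 CPM in siNC+H2O2+FV libraries (edgeR log2 fold change -0.42 ± 0.07, adjusted p = 0.000992). Without H2O2 it had 43.9, 41.1 and 42.0 CPM in siprdx1, against 50.9, 56.3 and 54.4 CPM in siNC libraries (edgeR log2 fold change -0.35 ± 0.07, adjusted p = 0.00851). After H2O2 the value was -0.16 ± 0.07 (edgeR adjusted p = 0.332), with overlapping libraries. Adamts9 was lower after fluvastatin, with 119.9, 124 and 126 CPM in siprdx1 cells, against 148, 142 and 144 CPM in siNC cells (edgeR log2 fold change -0.23 ± 0.05, adjusted p = 0.00694). It shares 1381 of 15048 exon bases with the opposite-strand gene A730049H05Rik, which at 5.80 CPM was lower too (−0.64, edgeR adjusted p = 0.0399). Adamts3 had 4.51, 6.29 and 4.98 CPM in siprdx1+H2O2+FV, against 7.12, 8.62 and 7.66 CPM in siNC+H2O2+FV libraries (edgeR log2 fold change -0.57 ± 0.14, adjusted p = 0.0212). Without siNC+H2O2+FV replicate 2 or siprdx1+H2O2+FV replicate 1 the number that passed after fluvastatin was 3. The Adamts3 call was lost in 3 of 6 fits that left out 1 library (siNC+H2O2+FV replicate 2, siprdx1+H2O2+FV replicate 1 or 3), and the Adamts9 call in 1 (siprdx1+H2O2+FV replicate 1). With the GC and length correction it was 12 after fluvastatin, 6 after H2O2 and 8 without H2O2, where 6.81%, 8.15% and 5.44% of all genes passed in the corrected fit.

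The 21 tested genes that passed nowhere included Timp2, Mmp14, Mmp2, Adamts2 and the 5 ADAMTS-like genes. Of the ADAMTS-like group, Adamtsl4 and Adamtsl5 had the highest counts, at 34.4 and 31.0 CPM on average, and Adamtsl3 had the lowest, at 0.833 CPM. The summed level of the 5 was 66.7 to 78.3 CPM in siprdx1+H2O2+FV libraries, against 67.9 to 83.2 CPM in siNC+H2O2+FV libraries, and overlapped likewise in the other treatments. The lower-expressed members carry little of that sum: the median knockdown log2 fold change of the 5 was −0.41 after H2O2 and fluvastatin, −0.16 after H2O2 and −0.26 without H2O2. After fluvastatin 3 of 5 had an unadjusted edgeR p below 0.05, where 2732 of all 16432 tested genes had, but none of the 5 passed. The summed TIMP genes showed separate ranges: 3246 to 3270 CPM in siprdx1+H2O2+FV and 2662 to 2737 CPM in siprdx1+H2O2 libraries, against 3606 to 3642 CPM in siNC+H2O2+FV and 2886 to 2924 CPM in siNC+H2O2 libraries. The summed MMP genes ranged from 868 to 980 CPM over the 18 libraries, with the siprdx1+H2O2+FV libraries lowest: 868 to 886 CPM, against 928 to 967 CPM in siNC+H2O2+FV and 912 to 969 CPM in siprdx1+H2O2 libraries.

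A list of 37 partner genes of these enzymes (plasminogen activators and related genes, activating convertases, ADAM proteases and matrix substrates) had 32 tested genes. With fluvastatin 3 of the 32 were higher and 0 lower in siprdx1 cells, where 12.6% and 11.0% of all tested genes were. In siNC cells 4 were higher and 1 lower, where 13.5% and 11.3% of all tested genes were. Plaur, the receptor that holds urokinase at the cell surface, had 113, 112 and 111 CPM with fluvastatin in siprdx1 cells, against 38.5, 40.9 and 43.3 CPM without. In siNC cells Plaur had 86.3, 87.3 and 90.4 CPM with fluvastatin, against 44.1, 47.5 and 47.3 CPM without. Its fluvastatin effect was larger in siprdx1 cells, with an interaction of 0.52 ± 0.09 (edgeR adjusted p = 0.00247), the 1 partner gene to pass that test. Of all tested genes 0.651% passed it.

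Under H2O2, 3 partner genes were higher and 1 lower in siprdx1 cells, where 2.48% and 5.39% of all tested genes were. In siNC cells 1 was higher and 2 lower, where 2.36% and 4.59% of all tested genes were. Adam33, a membrane ADAM protease, was lower in both arms, as Adamts10 was, with 17.5, 23.0 and 20.0 CPM in siprdx1+H2O2, against 31.6, 35.1 and 32.5 CPM in siprdx1 libraries (edgeR log2 fold change -0.72 ± 0.09, adjusted p = 8.81e-06). The siNC+H2O2 libraries had 23.4, 24.3 and 24.2 CPM, against 39.0, 32.1 and 37.9 CPM in siNC libraries (edgeR log2 fold change -0.60 ± 0.09, adjusted p = 9.4e-05). Bsg, known as an inducer of metalloproteases, was higher in siprdx1 cells after H2O2 (edgeR log2 fold change 0.23 ± 0.06, adjusted p = 0.0182), and so was the secreted serine protease Htra1 (edgeR log2 fold change 0.19 ± 0.05, adjusted p = 0.0162). Neither passed in siNC cells, at 0.17 ± 0.06 for Bsg (edgeR adjusted p = 0.092) and 0.04 ± 0.05 for Htra1 (edgeR adjusted p = 0.684). The interaction of H2O2 with the knockdown passed for 0 of the 32 partner genes, where 0.243% of all tested genes passed. With the knockdown, 1 partner gene was higher and 2 lower after H2O2 and fluvastatin, where 1.62% and 2.35% of all tested genes were. After H2O2 0 were higher and 2 lower (0.901% and 1.83% of all genes), and without H2O2 0 and 3 (0.657% and 1.67%). Adam19 was lower in all 3 treatments, with log2 fold changes of -0.41 after H2O2 and fluvastatin (edgeR adjusted p = 5.14e-05), -0.21 after H2O2 (edgeR adjusted p = 0.0451) and -0.32 without H2O2 (edgeR adjusted p = 0.0014).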

How the data were processed

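Libraries were made from poly(A) RNA with a stranded kit, per the labels' protocols. Raw read counts per gene are the authors' deposited values; the submitters' processing notes name HISAT2, HTSeq and mm10, and the annotation and strand setting are not given in the sources used here. All 18 libraries entered 1 edgeR 4.0.16 quasi-likelihood fit (R 4.3.3, TMM, filterByExpr, 6 group means, 12 residual degrees of freedom), with 9 contrasts and Benjamini-Hochberg adjustment over 16432 genes. Levels are CPM on TMM-scaled library sizes; exon lengths came from GENCODE M21, and 55141 of 55487 gene IDs were found there. The fit was also run on simulated counts with 2-fold changes and no GC-linked deviations. That run does not bear on the smaller changes reported here. Replicates of a group differed by more than sampling noise (chi-square per degree of freedom 2.66 to 16.3). Replicate numbers paired the samples by the correlation of deviations (above 0.1 in every pair) for H2O2 in siNC alone, at 0.135, 0.135 and 0.118. Alternatives were other scalings, no filter, a replicate block, DESeq2 1.42.0, single libraries left out and, chosen after seeing the data, offsets for GC content and length and leaving out 2 libraries. Genes named with values were those that passed in a contrast and averaged at least 1 CPM, the TIMPs, Mmp2, Mmp9, Mmp14 and members whose reads needed a remark. Partners were taken from the 8 with the smallest adjusted p, of which Adam12 and Pcsk5 are not described. Members and lists were chosen with earlier results of these data known. The partner list is counted whole, and the values of 1 gene in it are not reported here.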

Additional observations from a re-analysis of the deposited data

How the results depend on the processing

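None of the 34 gene calls changed sign under the alternatives run, but the balance of calls turned with library size alone, to 3 higher and 6 lower for fluvastatin in siNC (from 9 and 2) and 3 and 10 in siprdx1 (from 4 and 4). Scaling by size factors and the fit with a replicate block kept all 34 gene calls. The block gave 13 genes instead of 11 for fluvastatin in siNC, where 26% of all tested genes passed. It gave 7 instead of 6 for the knockdown after fluvastatin, where 4.28% did. DESeq2 and the fit without a filter each lost 1 of the 34 calls, library size alone lost 7, and the GC and length offsets lost 4 with or without the block. For fluvastatin in siprdx1, 13 genes passed with library size alone, where 31% of all tested genes passed, and 32.3% in siNC. Without the filter 2 passed for H2O2 in siprdx1, where 4.72% of all genes with counts passed. DESeq2 gave 2 for the interaction of fluvastatin with the knockdown, where 0.759% of all genes with counts passed. With the GC and length offsets the counts were 6 for H2O2 in siNC, 5 for H2O2 in siprdx1, 13 for fluvastatin in siprdx1, 12, 6 and 8 for the knockdown after fluvastatin, after H2O2 and without H2O2, and 1 and 3 for the interactions with H2O2 and fluvastatin. In the same order 9.15%, 14.3%, 32.9%, 6.81%, 8.15%, 5.44%, 1.2% and 2.09% of all tested genes passed. With the block added (replicate block) the counts were 6, 6, 13, 13, 8, 9, 1 and 3. The shares of all tested genes were then 10.7%, 15.7%, 34.2%, 7.91%, 9.41%, 6.3%, 1.61% and 2.64%. Leaving out siprdx1+H2O2 replicates 1 and 2, with 1 library left in that group, lost the Timp3 call for the knockdown after H2O2 and the Timp1 call for fluvastatin in siprdx1. Leaving out 1 library gave 1 to 3 genes for H2O2 in siNC, 1 to 2 for H2O2 in siprdx1, 7 to 12 for fluvastatin in siNC and 3 to 6 for the knockdown after fluvastatin. In those fits 3.87% to 6.89%, 4.89% to 7.49%, 18.5% to 23.8% and 1.91% to 3.78% of all tested genes passed. The causes were not tested. With 3 libraries a group, low genes such as Adamts20 and Mmp9 carry the larger standard errors, so small changes there were not detectable at this depth.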
